A study of Mus musculus with 66 samples.

Results

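The SLC25 carriers are membrane proteins that move small molecules across the mitochondrial inner membrane, and they were taken here as every transcript of the expression table whose gene symbol starts with Slc25a. The rule gave 33 transcripts of 32 genes, out of 9481 transcripts of 8978 genes. Most carriers work as exchangers, so that a substrate enters the matrix as another leaves it. They link oxidative phosphorylation, amino acid and fatty acid breakdown, iron use and cofactor supply to the cytosol. The cells of the small intestine that absorb food carry many mitochondria, and their stem cells divide rapidly in the crypt.

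RNA was measured in mouse small intestinal organoids, which are crypt-derived epithelial structures grown in gel, of the genotype Lgr5 GFPDTR/+. All cultures were kept in medium with epidermal growth factor and Noggin. ENR organoids also received R-Spondin-1, which strengthens Wnt signalling. CV organoids, named stem cell enriched in the labels, received in addition to ENR medium 3 µM CHIR99021, an inhibitor of the kinase GSK3, and 1 mM valproic acid, an inhibitor of histone deacetylases, for 5 days. EN organoids, named stem cell depleted, were grown for 2.5 days without R-Spondin-1, so EN and CV differed in 3 additives and in time, whose parts cannot be told apart. RNA-seq and ATAC-seq, which measures open chromatin, had 4 libraries per culture, each of the 3 histone marks had 3, and the transcription factor Hnf4g had 1. No source used here says that the replicates came from separate cultures, so p-values measure only the spread between these libraries.

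The RNA libraries held 5630951 to 8859744 expected counts beside the spike-ins. All 6 enterocyte markers, 4 goblet, 3 enteroendocrine and 2 tuft cell markers were higher in EN than in CV, and all 5 stem cell and 4 proliferation marker transcripts and 3 of 4 Paneth cell markers were lower, with 1 Paneth cell marker higher (edgeR, adjusted p under 0.01). The enterocyte markers summed to 4515 to 4839 CPM (counts-per-million) in the CV libraries, 2933 to 3342 in the ENR libraries and 14701 to 17537 in the EN libraries. Taken singly, 3 of the 6 were higher in CV than in ENR, 2 lower and 1 not called (median log2 fold change 0.05). For the stem cell markers the sums were 457 to 518 CPM (CV), 1708 to 1851 (ENR) and 36.0 to 40.1 (EN), so the CV libraries held less of these markers than the ENR libraries, with Olfm4 furthest apart (log2 fold change CV over ENR -6.78). Of 3 markers of cells outside the epithelium that were in the table, Vim and Ptprc were higher in EN, and their sum reached at most 29.4 CPM in any library. These markers differed between the same libraries in which the carriers are compared, and their part in the carrier differences was not tested. In such bulk libraries fewer cells of a type and less RNA per cell cannot be told apart.

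Of the 33 carrier transcripts, 31 had a count above 0 in at least 4 of the 12 libraries and were tested. Slc25a18, a glutamate carrier, held 1 count in a CV library and 1 in an ENR library. The second Slc25a51 transcript (XM_006537835.3) held 42.6 counts in an EN library and 50.4 in an ENR library and under 1 count in all others, and it shares its reads with XM_017320126.1, the Slc25a51 transcript described below. Between EN and CV, 25 of the 31 tested transcripts differed, 15 higher and 10 lower in EN, against 76.4% of all 9288 transcripts tested (edgeR quasi-likelihood test, adjusted p under 0.01). A share of 80.6% was near that background. The carriers' median log2 fold change was 0.23, beside -0.08 over all transcripts. Scaled to the spike-in RNA, 6 were higher and 11 lower, on TPM (transcripts-per-million, which account for length) 13 were higher and 14 lower, and on the deposited mRNA copy numbers 18 were higher and 2, Slc25a4 and Slc25a30, lower. The median of all transcripts itself lay at -0.49 with spike-ins, -0.34 on TPM and 0.72 on copies, and the differences below are relative to the median-centred scale of the counts. At least a 2-fold difference was found for 8 carriers, against 35.4% of all transcripts.

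**Figure D1:**
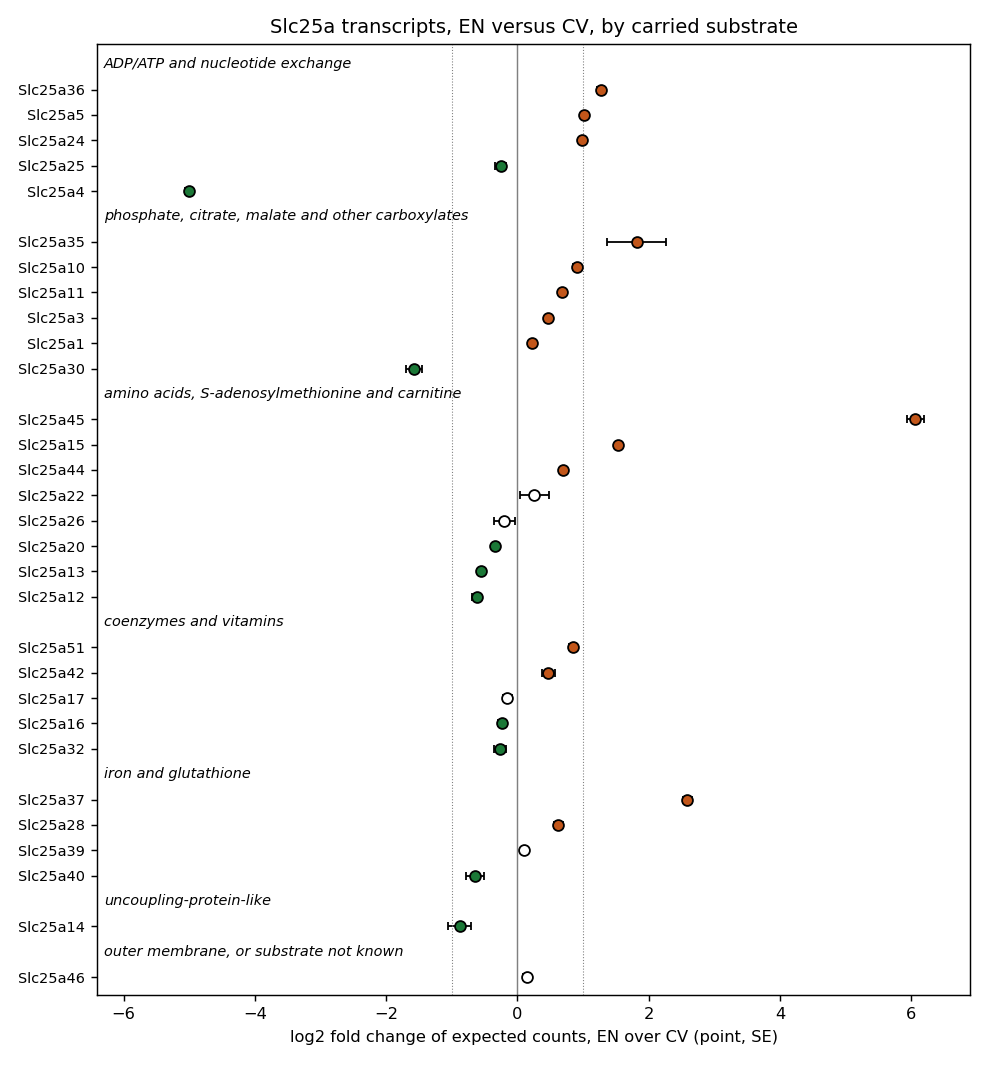
Log2 fold change of the tested carrier transcripts reported here, EN over CV, grouped by the substrates carried. Points are estimates with the SE as bars, filled orange where higher and green where lower in EN at adjusted p under 0.01 (edgeR), open otherwise, with dotted lines at 2-fold. Slc25a45 (6.06) and Slc25a4 (-5.00) lie far outside the remaining transcripts plotted.

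The carriers of adenine nucleotides held the most abundant member and the largest fall. Slc25a4 and Slc25a5 encode ADP/ATP translocases, which export ATP from the matrix in exchange for ADP. In CPM, Slc25a4 was at 436, 403, 407 and 400.5 in the CV libraries, at 41.2, 39.1, 37.8 and 36.5 in ENR and at 13.3, 14.6, 11.8 and 12.1 in EN. All CV libraries were thus above all ENR libraries, which were above all EN libraries. Slc25a4 was 32.0-fold lower in EN than in CV (log2 fold change -5.00 ± 0.06 SE, edgeR adjusted p = 6e-18), 3.01-fold lower in EN than in ENR (not called on the copies, log2 fold change -0.71) and 10.6-fold higher in CV than in ENR. These comparisons share their libraries.

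Slc25a5 was at 634, 646, 637 and 640.0 CPM in CV, at 704, 692, 716 and 719 in ENR and at 1265, 1307, 1363 and 1240 in EN. The EN libraries stood apart from those of the other cultures. Slc25a5 rose 2.02-fold from CV to EN (log2 fold change 1.02 ± 0.03 SE, edgeR adjusted p = 2.1e-13) and 1.83-fold from ENR to EN. Per length, it was the most abundant carrier in each culture, with 888 ± 12.4 TPM in CV, 883 ± 16.9 in ENR and 1436 ± 49.2 in EN (SD, n = 4). Slc25a4 held 676 ± 24.1 TPM in CV, second among the carriers, and 16.9 ± 1.5 in EN, with 57.0 ± 2.69 in ENR.

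Slc25a4 made up 42.5 to 44.8% of the TPM of the pair in the CV libraries, 5.66 to 6.47% in ENR and 1.01 to 1.3% in EN. Ratios of carrier pairs, here and below, were taken on TPM with 1 added to each value. The log2 ratio of Slc25a4 to Slc25a5 was -0.39 ± 0.06 in CV, -3.93 ± 0.09 in ENR and -6.33 ± 0.15 in EN (SD, n = 4). Each difference between cultures gave p = 0.0286 in an exact 2-sided permutation test, the smallest p that 70 splits allow, and 0.0358 after adjustment over 15 comparisons of carrier pairs. The summed TPM of the pair changed less, from 1543 to 1589 in CV and 922 to 952 in ENR to 1404 to 1520 in EN. Slc25a12 and Slc25a13, also a pair, had log2 ratios of -0.70 ± 0.13 in CV, -1.26 ± 0.10 in ENR and -0.75 ± 0.06 in EN. EN and CV did not differ past the threshold (exact permutation p = 0.4). Against ENR, both EN and CV differed at the same smallest p of 0.0286 (exact permutation). The ratio of Slc25a39 to Slc25a40 reached it too for EN with CV. This p therefore does not set Slc25a4 and Slc25a5 apart from the other pairs. Slc25a4 and Slc25a5 are close relatives, and their expected counts were whole numbers in all 12 libraries.

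**Figure D2:**
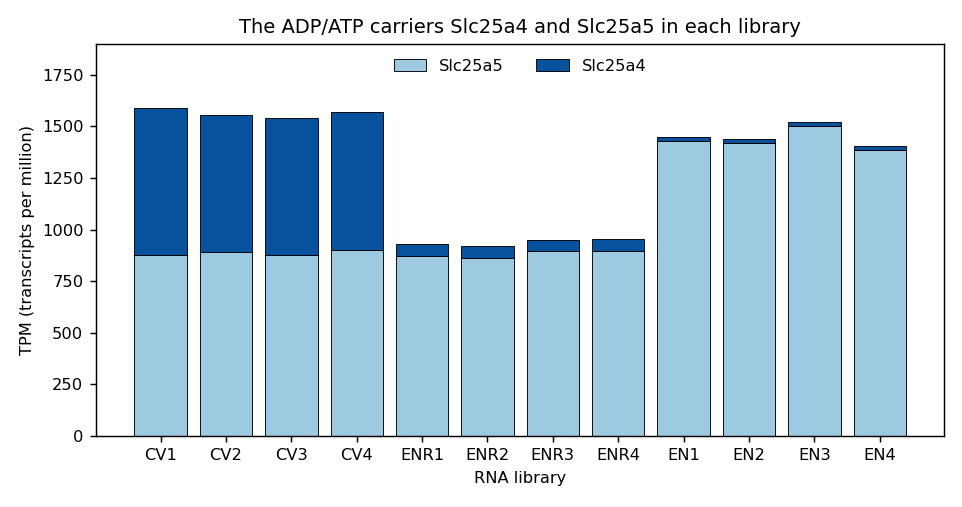
TPM of Slc25a5 (light) and Slc25a4 (dark) stacked for each RNA library, 4 per culture. The dark part is 42.5 to 44.8% of the bar in CV and at most 1.3% in EN, while the bars of EN reach 1404 to 1520 TPM.

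The 300 bases upstream of the first annotated start site of both translocase genes are given because the pair moved apart, with core promoter letters found on either strand in capitals. Slc25a4 lies on the minus strand and the window at chr8:47296639-47296938 (mm9), and Slc25a5 on the plus strand and the window at chrX:34335346-34335645 (mm9). Neither window overlaps an annotated transcript.
Slc25a4: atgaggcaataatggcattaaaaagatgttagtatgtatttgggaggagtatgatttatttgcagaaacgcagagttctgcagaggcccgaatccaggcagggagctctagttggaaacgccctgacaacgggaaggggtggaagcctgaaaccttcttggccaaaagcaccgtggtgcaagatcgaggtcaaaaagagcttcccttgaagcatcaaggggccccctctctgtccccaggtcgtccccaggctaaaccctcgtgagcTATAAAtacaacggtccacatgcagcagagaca
Slc25a5: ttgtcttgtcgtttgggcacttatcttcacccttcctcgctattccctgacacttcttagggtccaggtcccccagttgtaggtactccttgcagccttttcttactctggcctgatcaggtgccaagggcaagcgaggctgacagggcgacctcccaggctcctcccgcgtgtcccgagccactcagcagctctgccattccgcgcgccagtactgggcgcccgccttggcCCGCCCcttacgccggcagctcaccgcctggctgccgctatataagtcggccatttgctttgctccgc
The capitals in Slc25a4 are a TATA box (TATAAA) that starts 33 bases before the start site, letters that 14.6% of the same windows of 22374 protein-coding genes hold. Those in Slc25a5 are a GC box (GGGCGG, here on the opposite strand) that starts 68 bases before the start site, found in 40.9% of the windows. Only exact letters were searched. The letters tatataag near the end of the Slc25a5 window resemble a TATA box but are not TATAAA, and so were not marked. The HNF4 letters CAAAGNNCA, which include the 9-letter form CAAAGTCCA, were in neither window, nor were the TCF letters CTTTGATC. A match is a description of letters and shows no binding.

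Between EN and CV, the chromatin at the start of Slc25a4 differed in the same direction as its RNA. The region chr8:47295444-47296767 (mm9) covers the start site. Its normalized ATAC scores were 60, 58, 55 and 73 in CV, 17, 27, 21 and 18 in ENR and 20, 32, 22 and 25 in EN. Scores of H3K27ac, a mark of active promoters and enhancers, were 48, 50 and 42 in CV, 8, 20 and 13 in ENR and 12, 13 and 14 in EN. Those of H3K4me3, a mark of promoters in use, were 55, 46 and 60 in CV, 33, 29 and 23 in ENR and 21, 14 and 21 in EN. No CV library overlapped an EN library in any of the 3 assays. The log2 differences EN minus CV were -1.29 ± 0.18 for ATAC, -1.77 ± 0.43 for H3K27ac and -1.49 ± 0.23 for H3K4me3 (SE, limma adjusted p = 1.2e-05, 0.0071 and 0.0023). EN and ENR did not differ past the threshold in ATAC (log2 difference 0.24 ± 0.18, limma adjusted p = 0.31), although the RNA did. A further region, centred at -1262 bp from the start site, had ATAC scores of 17, 17, 20 and 13 in CV and 3, 6, 5 and 4 in EN (log2 difference -1.71 ± 0.28, limma adjusted p = 6.3e-05). H3K27me3, a mark of Polycomb silencing, scored 3, 2 and 9 in CV, 22, 25 and 7 in ENR and 22, 10 and 10 in EN at the start site. The EN and CV libraries of this mark did not overlap there, but the difference was not called.

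Among the other nucleotide carriers, Slc25a36, which carries pyrimidine nucleotides, was at 42.9, 43.8, 45.6 and 45.5 CPM in CV, at 60.2, 56.3, 57.2 and 58.3 in ENR and at 105, 109, 117 and 99.9 in EN. The 3 cultures did not overlap. It rose 2.41-fold from CV to EN (log2 fold change 1.27 ± 0.05 SE, edgeR adjusted p = 4.1e-12). Slc25a24 and Slc25a25 encode ATP-Mg/phosphate carriers that respond to calcium and adjust the adenine nucleotide content of the matrix. They parted: Slc25a24 rose from CV to EN, by 0.98 on the log2 scale, while Slc25a25 was lower by the test (-0.25), with overlapping libraries and a direction that turned to 0.53, not called, on the deposited copies. That call was lost when any single EN or CV library except EN replicate 2 was left out. The log2 ratio of Slc25a24 to Slc25a25 was 2.08 ± 0.09 in CV, 2.09 ± 0.14 in ENR and 3.26 ± 0.16 in EN (SD, n = 4; exact permutation p = 0.0286 for EN against either, adjusted p = 0.0358). The ATAC scores at the Slc25a36 start site moved the other way than its RNA, 72, 76, 66 and 53 in CV against 38, 59, 51 and 52 in EN, with overlapping libraries (log2 difference -0.41 ± 0.15, limma adjusted p = 0.031), while H3K27ac was higher in EN (0.65 ± 0.22, adjusted p = 0.047). The ATAC call was lost without CV replicate 1, 2 or 3 or EN replicate 1. The H3K27ac call was lost when any single EN or CV library of that mark except CV replicate 3 was left out.

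**Figure D3:**
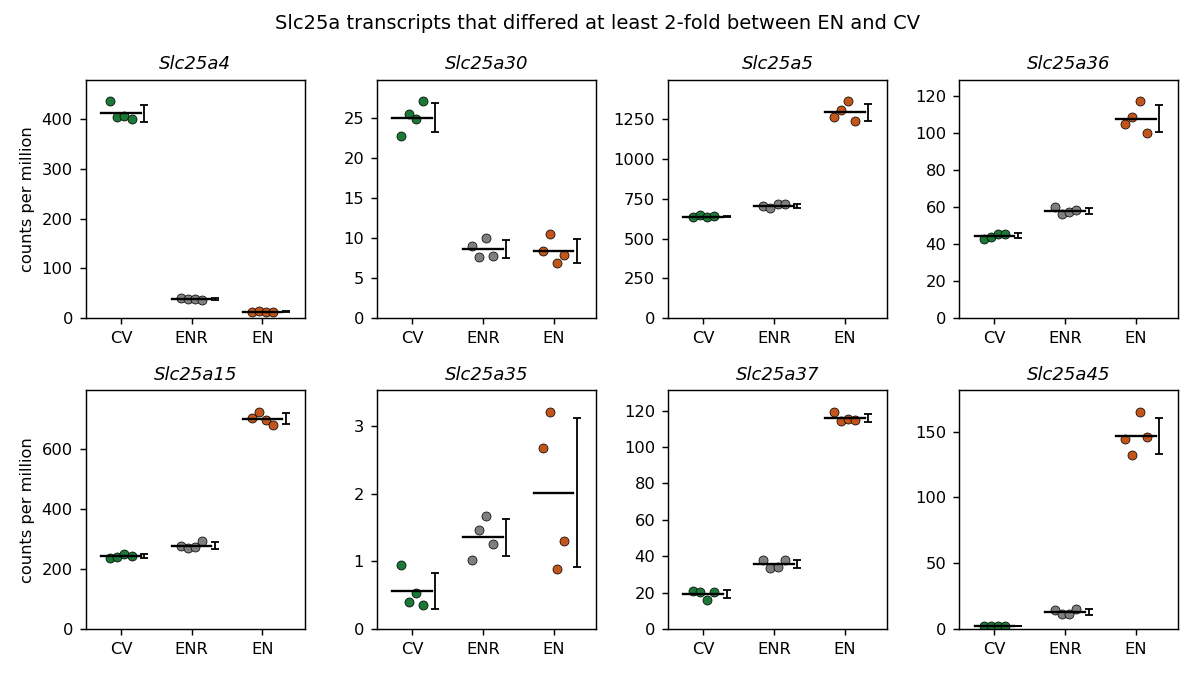
CPM of the 8 carriers that differed at least 2-fold between EN and CV, each on its own axis from 0. Points are libraries, 4 per culture, lines the means and bars at the side the SD. Slc25a4 and Slc25a30 are highest in CV, while Slc25a35 lies between 0.361 and 3.21 CPM with overlapping EN and CV libraries.

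Of 6 carriers grouped under phosphate and carboxylates, 5 were higher and 1 lower in EN than in CV, against 35.2% and 41.2% of all transcripts. None of the 5 was called higher with spike-in scaling. The grouping was made here and includes Slc25a30 and Slc25a35, described below. Slc25a3, which brings in the phosphate used by the ATP synthase, was the second most abundant carrier in ENR and EN, with 336 ± 14.7 TPM in CV, 319 ± 2.64 in ENR and 370 ± 16.5 in EN (SD, n = 4). From CV to EN it rose by 0.46 on the log2 scale (0.042 with spike-in scaling, not called). Slc25a10, the dicarboxylate carrier, rose by 0.91 (0.49 with spike-ins, not called), and Slc25a11, which exchanges oxoglutarate for malate, by 0.68 (0.27, not called). Slc25a1, which exports citrate for lipid synthesis, rose by 0.23 on this scale, but its direction turned with spike-in scaling (-0.19) and on TPM (-0.10), where it was not called. Slc25a30, a relative of the uncoupling proteins, was the exception. It was at 22.8, 25.5, 24.9 and 27.1 CPM in CV, at 9.09, 7.69, 10.0 and 7.80 in ENR and at 8.44, 10.5, 6.96 and 7.92 in EN. The CV libraries stood apart, and ENR and EN overlapped. It was 2.99-fold lower in EN than in CV (log2 fold change -1.58 ± 0.12 SE, edgeR adjusted p = 8.8e-09), and EN and ENR differed by -0.04 ± 0.14 (adjusted p = 0.78). Its start-site region was more open in EN all the same, with ATAC scores of 108, 105, 104 and 93 in CV, 136, 117, 120 and 120 in ENR and 141, 161, 150 and 141 in EN (log2 difference EN minus CV 0.53 ± 0.10 SE, limma adjusted p = 0.00021). Slc25a35, a carrier of uncertain substrate, held 3 to 7 counts in CV, 8 to 11 in ENR and 5 to 20 in EN. Its difference between EN and CV was called (log2 fold change 1.82 ± 0.45 SE, adjusted p = 0.0017) although the libraries overlapped, and it was 1.43 and not called with spike-in scaling.

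Slc25a45 showed the largest rise among the carriers. By sequence it belongs with the carriers of basic amino acids and carnitine. It was at 2.02, 2.14, 2.12 and 2.41 CPM in CV, at 14.3, 11.5, 11.1 and 15.5 in ENR and at 144, 132, 165 and 146 in EN. Counts were 15 to 20 in the CV libraries, well above the floor of 3 counts taken as the least that shows a transcript, and 616 to 1076 in EN. The cultures did not overlap. Slc25a45 was 66.8-fold higher in EN than in CV (log2 fold change 6.06 ± 0.12 SE, edgeR adjusted p = 8.9e-16), 11.1-fold higher in EN than in ENR and 6.03-fold lower in CV than in ENR. In TPM it moved from 1.89 ± 0.16 in CV and 10.2 ± 1.68 in ENR to 102 ± 9.60 in EN (SD, n = 4).

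The accessible region that differed most around Slc25a45 lay inside the gene. Slc25a45 is at chr19:5877808-5885766 on the plus strand (mm9), and the region chr19:5881023-5881540, centred 3473 bp after the first start site, falls in an intron at its centre. Its ATAC scores were 6, 8, 8 and 8 in CV, 40, 40, 19 and 38 in ENR and 81, 104, 59 and 76 in EN. The order of the cultures was that of the RNA, without overlap. The log2 difference EN minus CV was 3.23 ± 0.23 (SE, limma adjusted p = 4.4e-09), EN minus ENR 1.23 ± 0.23 (adjusted p = 0.00036) and CV minus ENR -2.00 ± 0.23 (adjusted p = 6.1e-06). H3K27ac at this region was 8, 5 and 6 in CV, 7, 7 and 8 in ENR and 23, 20 and 24 in EN (EN minus CV 1.69 ± 0.50, limma adjusted p = 0.023), a call that was lost, with adjusted p from 0.051 to 0.085, without CV replicate 4, EN replicate 2, EN replicate 3 or EN replicate 4. Reads of Hnf4g, a nuclear receptor of the gut epithelium, numbered 2 in the CV library, 8 in ENR and 79 in EN. Given the 84340, 352600 and 1816497 reads that these libraries held in all regions, that was 23.7, 22.7 and 43.5 RPM (reads-per-million), with overlapping 95% Poisson intervals in CV (2.87 to 85.7) and EN (34.4 to 54.2). The small region at the start site itself (chr19:5878086-5878235) had mean ATAC scores of 4.5, 3.5 and 2.5 in CV, ENR and EN and was below the filter.

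The central 300 bases of the intronic region are shown since it carried the largest difference in accessibility found near these genes (chr19:5881132-5881431, mm9, plus strand).
Slc25a45 intron: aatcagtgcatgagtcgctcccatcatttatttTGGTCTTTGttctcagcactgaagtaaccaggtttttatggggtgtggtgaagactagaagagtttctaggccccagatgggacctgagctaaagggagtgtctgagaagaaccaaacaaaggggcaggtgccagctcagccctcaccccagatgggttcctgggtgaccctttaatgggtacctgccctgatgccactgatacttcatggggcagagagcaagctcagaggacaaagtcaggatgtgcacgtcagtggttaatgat
The capitals mark the HNF4 letters CAAAGNNCA, present here on the opposite strand from base 34 of the window. The centres of 14% of all 94334 regions read hold these letters and 2.28% hold CAAAGTCCA, which this window lacks.

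Slc25a15 exchanges ornithine and citrulline for the urea cycle and for arginine and polyamine metabolism. It was at 236, 241, 251 and 244 CPM in CV, at 276, 271, 272 and 294 in ENR and at 702, 723, 697 and 679 in EN. The 3 cultures were again separate, with ENR close to CV. Slc25a15 rose 2.88-fold from CV to EN (log2 fold change 1.53 ± 0.04 SE, edgeR adjusted p = 5.4e-15). With 259 ± 7.20 TPM (SD, n = 4) it ranked 3 among the carriers in EN. Its start-site region was not called in ATAC, but an intronic region 7660 bp into the gene (chr8:23501029-23501837) had ATAC scores of 31, 35, 40 and 45 in CV, 51, 53, 52 and 48 in ENR and 114, 116, 94 and 139 in EN. The log2 difference EN minus CV there was 1.59 ± 0.14 (SE, limma adjusted p = 8.2e-08), and the Hnf4g reads were 0, 13 and 96 in CV, ENR and EN. Relative to the library totals these were 0 RPM (exact 95% Poisson interval up to 43.7), 36.9 (19.6 to 63.0) and 52.8 (42.8 to 64.5), with overlapping intervals.

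The remaining amino acid and acyl carriers moved in both directions. Slc25a44, a branched-chain amino acid carrier, rose from CV to EN, by 0.70 on the log2 scale (0.27 with spike-in scaling, not called), and was lowest in ENR, at 50.7 to 59.0 CPM against 88.5 to 93.8 in CV and 146 to 153 in EN. Slc25a20, which imports acylcarnitines for fatty acid oxidation, was also lowest in ENR, at 70.6 to 72.2 CPM against 175 to 186 in CV and 140 to 150 in EN. It was 2.01-fold higher in EN than in ENR and 2.54-fold higher in CV than in ENR, and lower in EN than in CV (-0.34), a direction that turned to 0.49, not called, on the deposited copies. Slc25a12 and Slc25a13 encode aspartate/glutamate carriers of the malate-aspartate shuttle. Both were lower in EN than in CV, by log2 fold changes of -0.62 and -0.55, and on the deposited copies these were 0.13 and 0.22, not called. Slc25a12 was 2.06-fold higher in CV than in ENR. The glutamate carrier Slc25a22 (0.26 ± 0.22 SE) and the S-adenosylmethionine carrier Slc25a26 (-0.20 ± 0.16 SE) were not called between EN and CV on the counts. Slc25a22 was called higher on the copies (1.08), but stood at -0.19 with spike-in scaling and -0.03 on TPM, neither called. Slc25a26 was called lower on TPM (-0.46), with 0.54, not called, on the copies.

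Of 6 tested transcripts for coenzyme and vitamin carriers, 2 were higher and 2 lower in EN than in CV, against 35.2% and 41.2% of all transcripts. Slc25a51, the mitochondrial NAD carrier, rose by 0.84 on the log2 scale (XM_017320126.1; 0.42 with spike-in scaling, not called), from 98.4 to 106 CPM in CV to 166 to 194 in EN. Slc25a42, a coenzyme A carrier, rose by 0.47, which was not called with spike-in scaling (0.053) or on TPM (0.13). Slc25a16, linked to coenzyme A, and Slc25a32, which carries folate or the coenzyme FAD, were lower by the test (-0.24 and -0.27). On the deposited copies they turned to 0.55 and 0.51, neither called. The Slc25a32 call was lost without any single EN or CV library except CV replicate 1 or 4. Slc25a32 was the only carrier beside Slc25a4 that was lower in EN than in ENR, at 24.4 to 27.3 CPM against 44.2 to 54.2 (1.81-fold, log2 fold change -0.85 ± 0.08 SE, edgeR adjusted p = 1.4e-07), though the copies gave 0.14, not called. Slc25a17, a peroxisomal carrier of coenzymes (-0.15), was not called between EN and CV on the counts. It was called lower with spike-in scaling (-0.58) and on TPM (-0.47), and stood at 0.67, not called, on the copies.

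The mitoferrins bring iron into mitochondria for haem and iron-sulphur clusters, and both were called higher in EN than in CV on the count scale. Slc25a37 (mitoferrin 1) was at 20.8, 20.3, 15.9 and 20.1 CPM in CV, at 37.6, 33.4, 34.0 and 37.9 in ENR and at 119, 114, 115 and 115 in EN. The cultures did not overlap. It rose 6.01-fold from CV to EN (log2 fold change 2.59 ± 0.07 SE, edgeR adjusted p = 3.1e-14) and 3.23-fold from ENR to EN. Slc25a28 (mitoferrin 2) rose from CV to EN by 0.62 (log2), which was 0.21 and not called with spike-in scaling. The log2 ratio of Slc25a37 to Slc25a28 was -2.74 ± 0.17 in CV, -1.81 ± 0.04 in ENR and -0.90 ± 0.02 in EN (SD, n = 4; exact permutation p = 0.0286 for each difference, adjusted p = 0.0358). Slc25a28 thus remained the more abundant of the pair per length. Of the carriers linked to glutathione, Slc25a40 was lower in EN (-0.65), which on the copies was 0.05, not called. Slc25a39 was not called on the counts (0.10 ± 0.05 SE), but was called lower on TPM (-0.21) and higher on the copies (0.95).

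The start site of Slc25a37 and further regions of the gene were more open in EN. At the start site (chr14:69901519-69903422, mm9) ATAC scores were 115, 132, 89 and 98 in CV, 153, 167, 149 and 132 in ENR and 135, 180, 178 and 149 in EN (log2 difference EN minus CV 0.57 ± 0.13 SE, limma adjusted p = 0.0014). H3K4me3 there was 104, 80 and 91 in CV, 107, 108 and 99 in ENR and 147, 143 and 153 in EN (0.69 ± 0.14, limma adjusted p = 0.0078), a call that was lost with quantile normalization and with a replicate block. In both assays the EN libraries were above all CV libraries. A region just past the 3' end of the gene (chr14:69859349-69859854) scored 6, 10, 9 and 11 in CV, 26, 33, 26 and 23 in ENR and 68, 54, 44 and 60 in EN in ATAC (2.53 ± 0.20, adjusted p = 1.4e-08). Hnf4g reads in it were 0, 0 and 38 in CV, ENR and EN, or 0 RPM (exact 95% Poisson interval up to 43.7) in CV, 0 (up to 10.5) in ENR and 20.9 (14.8 to 28.7) in EN, so that the intervals of CV and EN overlapped.

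**Figure D4:**
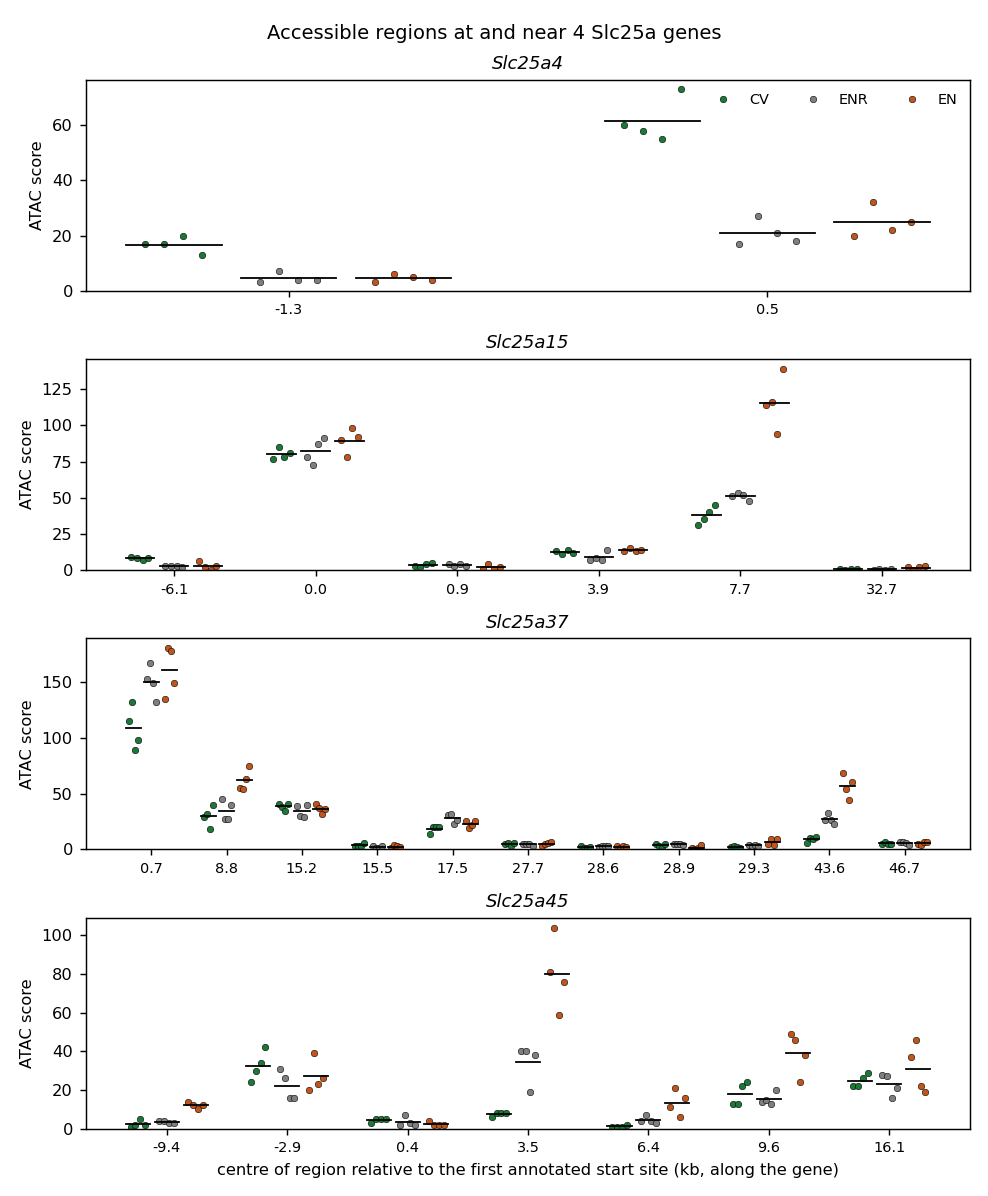
Normalized ATAC scores of every region in or within 10000 bp of 4 carrier genes, placed in order of the distance of the region's centre from the first annotated start site along the gene (kb). Points are libraries, 4 per culture, and lines the means. The intronic region centred 3473 bp into Slc25a45 separates CV (6 to 8), ENR (19 to 40) and EN (59 to 104).

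Slc25a14, which resembles the uncoupling proteins, was lower in EN than in CV (-0.88 ± 0.17 SE, edgeR adjusted p = 0.00024), but on the deposited copies the difference was -0.17 and not called. Slc25a46, which sits in the outer membrane and takes part in mitochondrial dynamics, was not called on the counts (0.14 ± 0.06 SE). It was called higher on the copies (0.98), but stood at -0.29 with spike-in scaling and -0.16 on TPM, neither called.

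Against ENR, the carriers moved mostly upward in EN. Of the 31 tested transcripts, 20 were higher and 2 lower in EN than in ENR, against 72.7% of all transcripts called, 35.5% higher and 37.2% lower (edgeR, adjusted p under 0.01), with a median log2 fold change of 0.47 beside -0.01 over all. With spike-in scaling 5 were higher and 6 lower, with TPM 19 and 5, and with the deposited copies 26 and 0. Between CV and ENR, 14 were higher and 6 lower in CV, against 60% of all transcripts called, 30.2% higher and 29.8% lower, with a median of 0.24 beside -0.01. Spike-in scaling left 6 higher and 3 lower, TPM gave 19 and 4, and the copies 8 and 1. Both comparisons share the ENR libraries. The summed TPM of all carriers was lowest in ENR, at 2218 to 2271, against 3199 to 3286 in CV and 3350 to 3543 in EN. On the deposited copies, in contrast, the sums of ENR (988 to 2642) and CV (1995 to 2715) overlapped, and those of EN were above both (5106 to 7751). Without Slc25a4 and Slc25a5 the TPM sums were 1296 to 1319 in ENR, 1646 to 1715 in CV and 1911 to 2034 in EN.

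Over the start sites of all carriers, 39 regions lay within 500 bp of an annotated start site of 31 carrier genes, and 7 of these also lay within 500 bp of the start of another gene. In ATAC 34 of the 39 had a mean score of at least 5 and were tested. Of these 15 differed between EN and CV, 10 higher and 5 lower in EN, against 49.3% of all regions and 43% of regions near any start site, 24% higher and 19% lower (limma, adjusted p under 0.05). Quantile normalization between libraries gave 4 higher and 7 lower. The median log2 difference was 0.14 for the carriers and 0.04 for all start-site regions. For H3K27ac, 17 of 35 tested regions differed, 16 higher and 1 lower, against 17.8% of all regions and 28.8% of start-site regions, 23.2% higher and 5.63% lower, and the medians were 0.83 and 0.32. This count fell to 11 without EN replicate 2 or EN replicate 4, and to 8 with quantile normalization. The summed H3K27ac scores over all regions were also higher in EN, 1622103 to 1760511, than in CV, 1345873 to 1406651, and their part in the count was not tested. H3K4me3 differed at 3 of 34 tested regions, against 15.1% of all regions and 18.2% of start-site regions (9.64% higher, 8.53% lower), with Slc25a28 and Slc25a37 higher and Slc25a4 lower. The Slc25a28 call was lost without any single EN or CV library of that mark except EN replicate 1. Without EN replicate 1 there were 10, 9 higher and 1 lower. H3K27me3 differed at 0 of 27 tested regions (limma), against 0.66% of all regions and 0.495% of start-site regions, with 1 at an unadjusted p under 0.05.

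Slc25a42, picked after its values were seen, had 2 start-site regions, and both were higher in EN in ATAC and H3K27ac. At chr8:72734906 scores of H3K27ac were 78, 65 and 80 in CV, 122, 106 and 111 in ENR and 254, 170 and 245 in EN (log2 difference EN minus CV 1.56 ± 0.22 SE, limma adjusted p = 9e-05), and at chr8:72717236 they were 13, 28 and 28, 52, 36 and 33, and 96, 81 and 98 (2.02 ± 0.35, adjusted p = 0.00054). In both regions every EN library was above every CV and ENR library. Slc25a5 had H3K27ac scores of 42, 49 and 54 in CV, 125, 76 and 123 in ENR and 129, 109 and 110 in EN at its start site (1.25 ± 0.26, limma adjusted p = 0.0024). Here ENR and EN overlapped, and CV lay below both.

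Around the 8 carriers with at least a 2-fold RNA difference, 49 regions lay in the gene or within 10000 bp of it, start sites included. In ATAC 29 were tested, and 11 were higher and 7 lower in EN than in CV, against the 49.3% called over all regions. In H3K27ac 32 were tested, with 4 higher and 1 lower, against 17.8% over all regions. In H3K4me3 1 of 18 tested was higher and 1 lower, against 15.1%, and in H3K27me3 0 of 42 were called by limma, against 0.66%.

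Hnf4g reads were highest at the start site of Slc25a1 among the carriers, with 22 in the CV library, 86 in ENR and 869 in EN, the last with an exact 95% Poisson interval of 812 to 929. The library totals differed widely, and in RPM these were 261 (163 to 395) in CV, 244 (195 to 301) in ENR and 478 (447 to 511) in EN. Slc25a28 had 347 reads in EN (311 to 385.5), Slc25a10 285 (253 to 320.1), Slc25a39 282 (250.0 to 317), Slc25a51 190 (164 to 219) and Slc25a37 168 (144 to 195). At Slc25a4 there were 48 (35.4 to 63.6). The median over the 39 carrier regions was 67 reads in EN, beside 31 over the 18086 regions near any start site, and 29 of the 39 were above that median. There was no replicate of this factor, regions were of unequal length (2147 bp at Slc25a1, 1323 bp at Slc25a4), and the intervals cover counting error only.

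The carriers were set beside other mitochondrial genes for the comparison of EN with CV. Among 14 transcripts for the machinery that imports carrier proteins, 13 were lower and 1 higher in EN, with a median log2 fold change of -0.71 (edgeR, adjusted p under 0.01). Timm10, a chaperone of the intermembrane space (-1.56), and the outer membrane translocase genes Tomm5 and Tomm20 (-1.39 each) were among the lower ones, and Timm13 was the higher one (0.22). Among 22 transcripts of other small-molecule transporters of the mitochondrial membranes, 11 were higher and 6 lower (median 0.21), with the uncoupling protein gene Ucp2 at 1.65 and the sideroflexins Sfxn1 at 1.42 and Sfxn2 at -1.63. For 36 transcripts of enzymes that make or use a carried substrate the counts were 19 and 12 (median 0.26). Arg2, the mitochondrial arginase, stood at 5.33 and Mthfd1, a folate enzyme, at -3.10. Of 84 respiratory chain transcripts, 42 were higher and 17 lower (median 0.20), and of 80 for the mitochondrial ribosome, 7 were higher and 53 lower (median -0.39). All these counts stand against the 35.2% of transcripts called higher and 41.2% called lower over the whole table.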

How the data were processed

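RNA-seq, ATAC-seq and ChIP-seq of organoids in CV, ENR and EN medium were taken as deposited. For RNA the authors deposited, per transcript, the expected count (an estimated count) and TPM from kallisto (version 0.43.0 in the submitters' processing notes), and mRNA copies, a score made by the authors from spike-in RNA. For chromatin, the deposited table of merged regions on mm9 holds a normalized score per library for ATAC and the histone marks, and raw read counts for Hnf4g, per the file headers. The submitters' notes name BWA, Picard, MACS2 2.0 and DESeq2. All value columns were mapped to labels, leaving 0 unmapped. A wild-type and an Hnf4g knockout ENR RNA library and the remaining histone libraries were not analysed here.

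Expected counts were rounded, transcripts counted in 4 or more of the 12 libraries kept, and cultures compared with edgeR 4.0.16 in R 4.3.3 (TMM, quasi-likelihood test over all 12 libraries, Benjamini-Hochberg adjusted p under 0.01). CPM are TMM-scaled without spike-ins, which held 0.837 to 1.36% of expected counts. Scores were compared as log2(score + 1) with limma 3.58.1 (trend, mean score of at least 5, adjusted p under 0.05), where differences of low scores are understated, and regions were assigned by GENCODE vM1 start sites within 500 bp. Whether region starts count from 0 or 1 is not given in the sources used here. The ATAC fit held culture only, so its p-values take no pairing of libraries into account. Deviations from culture means correlated in all same-numbered ATAC pairs (r from 0.118 to 0.582). Some pairs of unlike number correlated too, such as CV replicate 4 with EN replicate 3 (r = 0.323). As an alternative, a block for the number left 15 calls. On simulated data for EN against CV, 96.5% of 200 transcripts changed 2-fold were found among 9269, with 3 false calls. The 200 were drawn only from the more abundant transcripts, and all others were left unchanged. In the data 76.4% of transcripts differed, so the rate does not carry over to the data, nor to transcripts as low as Slc25a35.

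All carriers entered the counts, and a few single-gene results are not reported here. Values per library are given for those called between EN and CV with at least a 2-fold difference and for the most abundant one. Other lists are given by counts, with up to 3 examples by largest change. The carriers, the lists and the regions near the genes were chosen with earlier results of these data known. Alternatives were DESeq2 1.42.0, spike-in scaling, TPM, copies, other filters and thresholds, a replicate block and leaving out each library of the cultures compared. Hnf4g, with 1 library per culture, was given as counts with exact 95% Poisson intervals. Motifs were searched on both strands of 300-base windows (Python 3.11.15).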

Additional observations from a re-analysis of the deposited data

Results flagged for a closer look

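Of 195 groups of 4 libraries (93 for RNA, 102 for ATAC), 9 held a library further from the other 3 than Dixon's 95% limit, and chance alone flags about 1 in 20 such groups. In RNA, Slc25a10 was at 83.8 CPM in CV replicate 3 against 90.6 to 91.0 in the other CV libraries. Slc25a37 was at 15.9 CPM in the same library against 20.1 to 20.8. Slc25a32 was at 24.4 CPM in EN replicate 2 against 26.9 to 27.3, and Slc25a22 at 10.3 CPM in EN replicate 3 against 7.64 to 7.92. In ATAC, the Slc25a26 start site scored 15 in EN replicate 3 against 22 to 23 in the other EN libraries. The Slc25a3 start site scored 98 in CV replicate 3 against 150 to 157, and 136 in EN replicate 1 against 152 to 155. The Slc25a30 start site scored 136 in ENR replicate 1 against 117 to 120, and the Slc25a40 start site 152 in EN replicate 1 against 217 to 228.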

How the results depend on the processing

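Each result counted here is a carrier or region under 1 alternative. A called result was unchanged if it kept its direction and call. An uncalled result was unchanged if it stayed uncalled, whatever its direction. In RNA, 576 of 651 were unchanged for EN with CV, 607 of 651 for EN with ENR and 587 of 651 for CV with ENR. Among regions, 605 of 632 were unchanged for ATAC and 370 of 442 for H3K27ac. The counts were 389 of 408 for H3K4me3 and 324 of 324 for H3K27me3. None of these regions was called for H3K27me3 in the main fit, so that count says nothing about direction. Directions of called results turned in 20 results, and the cause was not tested. With spike-in scaling the log2 fold change EN over CV was -0.19 for Slc25a1, and EN over ENR was -0.079 for Slc25a42, -0.073 for Slc25a46, -0.13 for Slc25a3, -0.084 for Slc25a12, -0.050 for Slc25a16 and -0.14 for Slc25a39. On TPM with either pseudocount, Slc25a1 was at -0.096 and -0.097 (EN over CV) and Slc25a5 at 0.0083 (CV over ENR). On the copies, EN over CV was 0.53 for Slc25a25, 0.22 for Slc25a13, 0.055 for Slc25a40, 0.49 for Slc25a20, 0.51 for Slc25a32, 0.13 for Slc25a12 and 0.55 for Slc25a16, and EN over ENR was 0.14 for Slc25a32. Quantile normalization turned the H3K27ac difference of Slc25a3 to -0.11.

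The number of carriers called fell from 22 to 11 for EN with ENR under spike-in scaling, and from 20 to 9 under spike-in scaling, 9 on the copies and 10 with a 1.5-fold minimum for CV with ENR. For H3K27ac it was 9 without a trend, 8 with quantile normalization and 11 at adjusted p under 0.01, and for H3K4me3 1 with quantile normalization. Leaving out 1 library of the cultures compared gave 23 to 24 carriers (EN with CV), 22 to 23 (EN with ENR) and 19 to 20 (CV with ENR). For EN with CV it gave 12 to 15 regions for ATAC, 11 to 18 for H3K27ac, 2 to 10 for H3K4me3 and 0 for H3K27me3. Deviations from culture means in same-numbered RNA libraries correlated with r from -0.0737 to 0.106. For H3K4me3 they ran from -0.417 (CV replicate 2 with ENR replicate 2) to 0.393 (CV replicate 4 with EN replicate 4). Such correlations cannot show whether the numbers pair the RNA or histone libraries. With a replicate block 23, 22 and 20 carriers were called in RNA, 17 regions for H3K27ac, 1 for H3K4me3 and 0 for H3K27me3. A fit with every labelled library of each mark was not run, since only the libraries used have a column. Counts as low as those of Slc25a35 limit what could be detected.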
